A study of Rattus norvegicus with 9 samples.

Results

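Expression in the prefrontal cortex was related to the plus maze value of each animal across all 9 rats of the series, so the comparison used 9 of 9 samples. The rats were untreated male Lewis rats, an inbred strain, of 200 to 250 g, supplied by Charles River and housed singly, and they formed 1 group. Each gave 1 Affymetrix rat expression array of total RNA from the frontal areas Fr1 and Fr2, dissected without the olfactory bulb 12 days after the last behavioural test. The 9 animals were among 20 that were tested, and the title of the series asks how brain mRNA levels go with behaviour among such animals. The labels give each rat a plus maze value but no unit for it, and the design text names 3 tests without the plus maze, so whether a higher value means more or less avoidance is not known here. A single strain and sex were sampled, and the tissue was not taken at the time of the test. The p-values below measure the spread between these animals, each seen on 1 array.

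The elevated plus maze has open and enclosed arms, and rodents tend to avoid the open ones. Time or entries on the open arms are used as a measure of anxiety-like behaviour, and some drugs that act on GABA-A receptors raise them. The prefrontal cortex sends projections to the amygdala and other regions that shape avoidance, and its serotonin, corticosteroid and GABA systems have been studied in that context.

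The plus maze values were spread unevenly. Rats 3 and 9 had 0, rat 7 had 2.3, rat 5 had 2.7 and rat 4 had 3. Rat 8 had 5.7, rat 1 had 9, and rats 2 and 6 shared the highest value, 18.7. The mean was 6.68 ± 7.36 (SD, n = 9), and no value lay between 9 and 18.7, which separated rats 2 and 6 from every other rat. A slope over the 9 rats therefore leaned on these 2 animals, and values without them are given beside the results.

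The samples carried markers of neurons, astrocytes and myelin. The neuron marker Snap25, a presynaptic SNARE protein, ran from 13.15 to 13.48 log2 units, with a median of 13.37. The astrocyte gene S100b ran from 12.93 to 13.30 and the myelin gene Mbp from 12.00 to 12.69. Several markers of neighbouring tissue were low: Ttr of choroid plexus reached 2.70, Drd2 and Adora2a of striatum 2.22 and 2.81, and Th and Dlx5 of olfactory bulb 2.13 and 1.93, all below the lowest mean kept for testing, 3.22. Other genes of the striatal and olfactory bulb lists were not low, with medians of 8.96 for Penk, 7.66 for Ppp1r1b, 7.67 for Pde10a and 8.50 for Reln. The mean deviation of the 3 striatal genes tested was highest in rats 8 and 9, at 0.66 and 0.31, and lowest in rat 6, at -0.52. Arrays of rats 8 and 9 stood apart on the first principal component, with scores of 35.6 and 30.2 against -12.1 to -1.62 for the others, so results are also given without them. The difference between 3' and 5' control probe sets, a sign of RNA integrity, had r = -0.308 with the plus maze for GAPDH (exact permutation p = 0.420), -0.0432 for beta-actin (exact permutation p = 0.910) and 0.135 for hexokinase (exact permutation p = 0.732). The corresponding rho were -0.294 (exact permutation p = 0.437), 0.168 (exact permutation p = 0.666) and -0.261 (exact permutation p = 0.494). Without rats 2 and 6 the r were -0.284, 0.0943 and 0.219.

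No gene passed the test across all probe sets. Slopes are in log2 units per SD of the plus maze value, and a positive slope means higher expression in rats with a higher value. In limma 0 of 9520 probe sets (0%) had an adjusted p under 0.05, and the lowest adjusted p was 0.999. At an unadjusted p under 0.01 there were 44, of which 38 had a positive slope (0.399% of those tested) and 6 a negative one (0.063%). With no association a proportion of 0.01 would be expected, so 44 of 9520 was fewer than that. At an unadjusted p under 0.05 there were 285, again fewer than the expected proportion of 0.05. Of these 233 were positive and 52 negative, so 81.8% were positive. That share was 69.0% after quantile normalization was applied once more, with 187 positive and 84 negative. It was 62.0% with the first principal component as a covariate, 69.7% with a term for rats 8 and 9, and 44.1% without rats 2 and 6. Because no slope passed the adjusted test, the genes below are described by their values, and none is said to have changed.

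The genes with the lowest unadjusted p and a positive slope included a splicing subunit, a translation inhibitor, interferon-induced membrane proteins and matrix proteins. Sf3b5, a small subunit of the SF3B complex that recognises the branch point of introns, ran from 6.04 in rat 3 to 6.74 in rat 6, with a median of 6.32. Rats 3 and 9, with a plus maze value of 0, had its 2 lowest levels, and rats 2 and 6 its 2 highest. Its slope was 0.22 ± 0.038 (SE), and without rats 2 and 6 it was 0.29. Pdcd4, which binds the helicase eIF4A and restrains translation, ran from 6.22 in rat 9 through a median of 6.74 to 7.11 in rat 6. Rat 1, with the next highest plus maze value, also had the next highest Pdcd4 level, 6.95, after 7.04 in rat 2. The slope of Pdcd4 was 0.22 ± 0.054 (SE), with a Pearson r of 0.839 (exact permutation p = 0.000529) and a Spearman rho of 0.908 (exact permutation p = 0.00168), and r was 0.737 without rats 2 and 6. C20h6orf89 had a slope of 0.28 ± 0.062 (SE), with 5.34 in rat 3, a median of 5.88, and 6.43 in rat 2. For these 3 genes the slope without rats 2 and 6 was at least as large as with them, 0.29 for Sf3b5, 0.37 for Pdcd4 and 0.42 for C20h6orf89. The unadjusted limma p were 0.0386, 0.0437 and 0.0453. These p are not a separate test, because the genes were picked in a fit that held the same rats. Of the 15 leading positive genes 4 had a larger slope without rats 2 and 6. In the rats left, the plus maze had an r of 0.870 with locomotion. The limma adjusted p of the 3 genes over all 9520 probe sets was 0.999 in the fit to 9 rats.

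**Figure D1:**
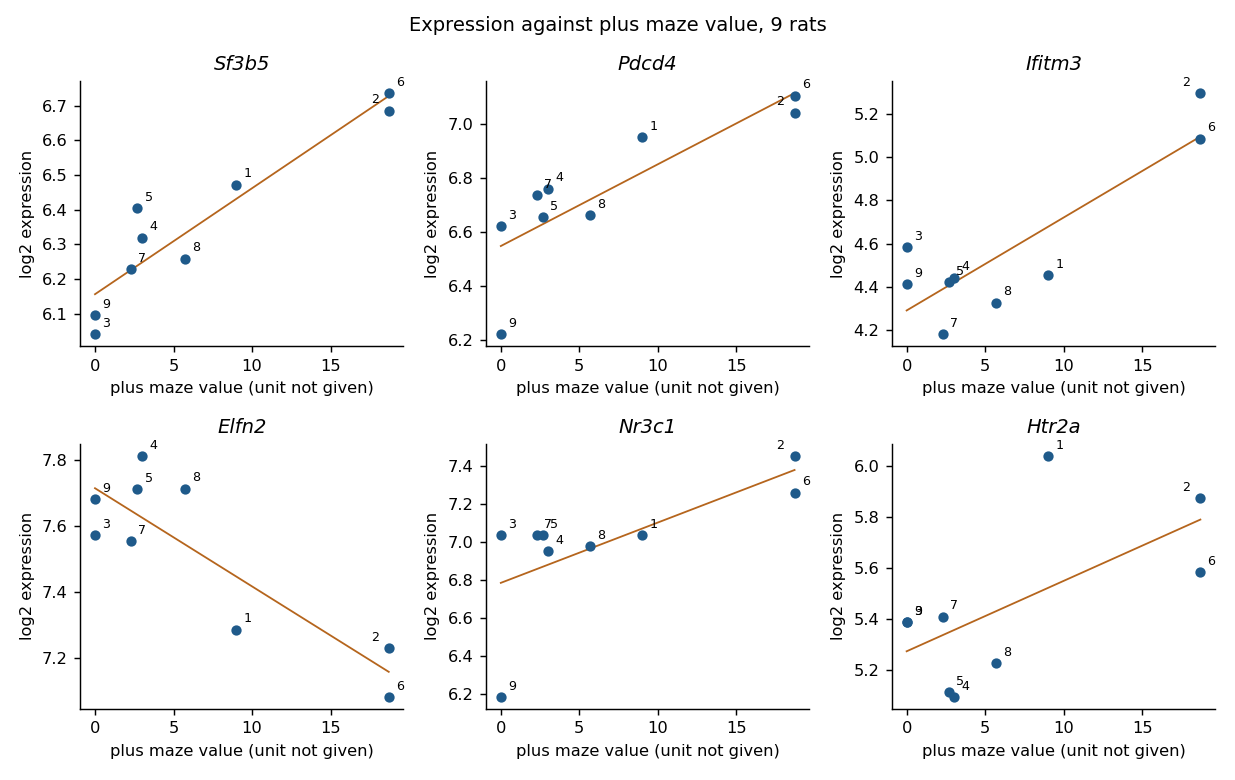
Log2 expression (vertical axes) against the plus maze value, whose unit is not given (horizontal axes), for 6 genes; each point is 1 rat, numbered, and the line is the least-squares fit. In Sf3b5 and Pdcd4 the levels go up through the lower plus maze values as well, whereas in Ifitm3 only rats 2 and 6 stand above the rest, with 5.30 and 5.09 against at most 4.58.

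Ifitm3 showed another shape. Ifitm3, a membrane protein that blocks virus entry, was 5.30 in rat 2 and 5.09 in rat 6, and the other 7 rats lay between 4.18 and 4.58. The groups did not overlap, but within the 7 rats r was -0.136, and the slope of 0.32 ± 0.067 (SE) took the value -0.04 without rats 2 and 6. Its close relative Ifitm2 ran from 4.33 in rat 9 to 4.91 in rat 6, with a slope of 0.16 ± 0.036 (SE), and 0.063 without rats 2 and 6. Ifitm2 and Ifitm3 are similar in sequence, and whether their probe sets bind each other's transcripts was not tested. B2m, the light chain of MHC class I molecules, had 9.85 in rat 9, a median of 10.03 and 10.30 in rat 2, with a slope of 0.11 ± 0.048 (SE), and its other tested probe set had 0.026. These 3 were the members of the 8 interferon and antigen presentation genes tested that had an unadjusted limma p under 0.05, and all 3 slopes were positive, where 2.8% of all genes had a positive and 0.515% a negative slope at that level. The median slope of the 8 genes was 0.022, close to the 0.016 of all 6793 genes tested, and without rats 2 and 6 it was 0.063 with none at that level.

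Other leading genes with a positive slope came from several cell functions. Id3, an inhibitor of basic helix-loop-helix transcription factors, was 7.38 in rat 2 and 7.74 in rat 6 against 6.77 to 7.10 in the others, with a slope of 0.25 ± 0.057 (SE). Of the 13 Id, BMP and TGF-beta genes tested it alone had an unadjusted limma p under 0.05, and Bmpr2, a BMP receptor, had a slope of -0.57 ± 0.31 (SE). Myl12a, a regulatory light chain of non-muscle myosin, ran from 6.80 in rat 9 through 7.14 to 7.74 in rat 6, with a slope of 0.26 ± 0.059 (SE). Amotl2, a scaffold of cell junctions, and Imp3, a protein of ribosomal RNA processing, had slopes of 0.25 ± 0.056 and 0.26 ± 0.061 (SE). The remaining leading genes in this direction were Aida at 0.21, Anxa5, a calcium-dependent phospholipid-binding protein, at 0.15, Nat8f3 at 0.25 and Ier3, an immediate early response gene, at 0.18. In all 15 leading positive genes both rats 2 and 6 lay above the other 7, and 14 of the 15 slopes were positive without these rats, Ifitm3 being the exception. Over all probe sets tested 3.53% had rats 2 and 6 both above the other 7 and 1.01% both below. Of the 44 probe sets at an unadjusted p under 0.01, 34 had both above and 4 both below, which the slope itself favours. Without rats 2 and 6, 42 of the 44 had the same sign and 6 an unadjusted limma p under 0.05, against 143 of all 9520 probe sets. The 44, like the 15 leading genes, were picked in a fit that held the same other 7 rats, which favours a kept sign and a low p.

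The leading genes with a negative slope included synaptic, cytoskeletal and RNA processing genes. Elfn2, a leucine-rich repeat membrane protein of the nervous system, was lowest in rats 6, 2 and 1, at 7.08, 7.23 and 7.29, and lay between 7.55 and 7.81 in the other 6. Its slope was -0.22 ± 0.050 (SE), while 4 other probe sets of the gene had slopes of -0.090, 0.005, -0.036 and -0.083. Synj2, a phosphatase of inositol lipids, ran from 5.33 in rat 6 through 5.87 to 6.34 in rat 9, and its slope was -0.22 ± 0.061 (SE). Limk1, the kinase that phosphorylates the actin-severing protein cofilin, was 5.09 in rat 6, 5.35 in rat 1 and 5.54 in rat 2 and reached 6.50 in rat 7. The slope of Limk1 was -0.36 ± 0.12 (SE), the farthest from 0 among these 15. Srsf2, a serine and arginine rich splicing factor, ran from 10.34 in rat 2 to 11.18 in rat 3, with a slope of -0.17 ± 0.064 (SE) and -0.036 in a second probe set. Meg3, an imprinted long noncoding RNA, ran from 11.47 in rat 6 to 11.93 in rat 9, with slopes of -0.14 and -0.20 in its 2 probe sets.

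The other negative leading genes had these slopes. Cdk8, a kinase of the Mediator complex, had a slope of -0.18 and Spata2, an adaptor of deubiquitination, also -0.18. Levels of Spata2 were low, with a mean of 3.30, near the lowest mean kept, and 2.75 in rat 6. Plekho1 had -0.11, Akap8l, a nuclear anchoring protein, -0.22, and Gne, the enzyme that starts sialic acid synthesis, -0.14. Cntfr, a receptor subunit for ciliary neurotrophic factor, had -0.21, Arpc5l, of the actin-nucleating Arp2/3 complex, -0.15, and Abcd3, a peroxisomal transporter, -0.11. Gramd1b, a sterol transfer protein, had -0.22 and Dennd6b -0.13. In 7 of these 15 genes both rats 2 and 6 lay below the other 7. Without them 13 slopes kept the negative sign, and those of Gne and Arpc5l were 0.11 and 0.0055. All 30 leading slopes kept their sign without rats 8 and 9 and with startle, locomotion and sugar feeding as covariates. These genes were picked in a fit to the same rats, which favours a kept sign in each of these comparisons.

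**Figure D2:**
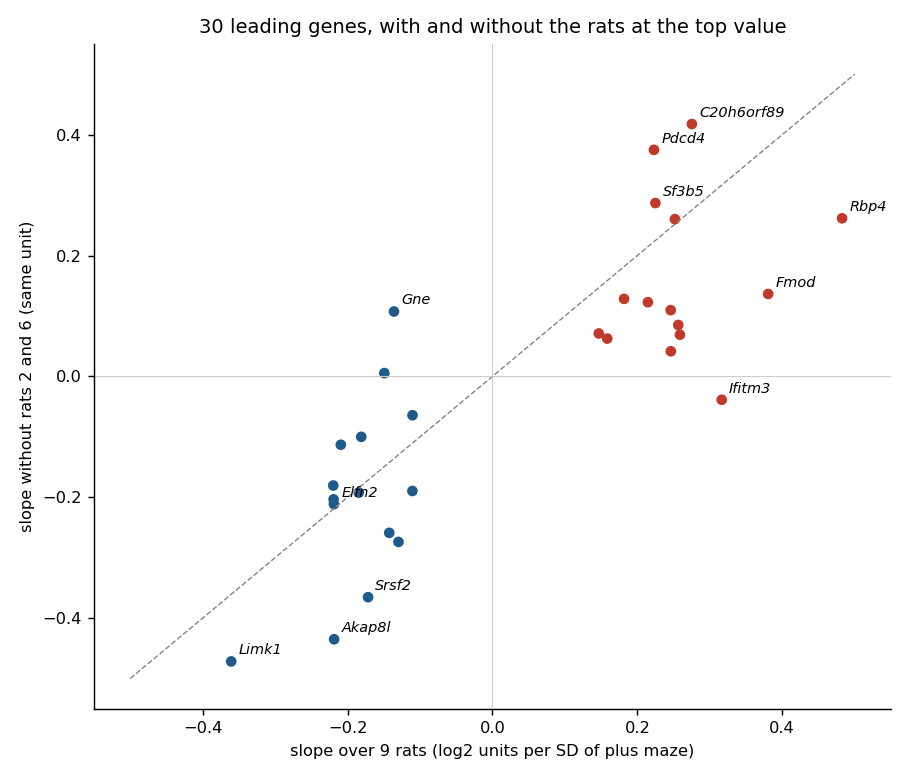
Slopes of the 30 leading genes over 9 rats (horizontal axis) against the slopes without rats 2 and 6 (vertical axis), both in log2 units per SD of the plus maze over the rats; red points are positive and blue points negative over 9 rats, and the dashed line marks equal slopes. Ifitm3, Gne and Arpc5l lie across the horizontal zero line, at -0.04, 0.11 and 0.0055, while C20h6orf89 and Pdcd4 lie above the dashed line at 0.42 and 0.37.

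Fitting the order of the plus maze values in place of their size reduced the pull of rats 2 and 6. Sf3b5, Pdcd4, C20h6orf89 and Rbp4 again led on the positive side, joined by Zcchc10 and Prr3. Zcchc10 ran from 5.15 in rat 3 and 5.51 in rat 9 to 6.28 in rat 2, and all 7 rats with a value above 0 lay at 5.87 or higher. Its rho was 0.849 (exact permutation p = 0.00608), its r 0.598 (exact permutation p = 0.0569), and r was 0.786 without rats 2 and 6. On the negative side Dennd6b, Srsf2 and Abcd3 were joined by Dgat1, which makes triglycerides, Kcnc4, a voltage-gated potassium channel, and Tomm40, the import pore of mitochondria. Kcnc4 was 7.52 in rat 3 and 7.39 in rat 9, and the other 7 rats lay between 6.97 and 7.16. Tomm40 was also highest in the same pair, at 8.62 and 8.64 against at most 8.45. Thus for Zcchc10, Kcnc4 and Tomm40 the rats with a plus maze value of 0 lay beyond the other 7. The fit to ranks by which these genes were picked favours this, and its share over all probe sets was not counted.

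Activity-induced genes, transcribed within minutes of neuronal firing, mostly had negative slopes. Over all genes 61.8% of slopes were positive, with a median of 0.016. Of 21 listed, 15 were tested, and 14 of these had a negative slope, with a median of -0.26. Fosb, a partner of Jun in the AP-1 factor, alone had an unadjusted limma p under 0.05. That is 1 of 15, where 0.515% of all genes had a negative slope and 2.8% a positive slope at that level. Its level ran from 3.47 in rat 2 through 3.82 to 4.28 in rat 9, low on this array, and its slope was -0.15 ± 0.061 (SE). It no longer had such a p without rat 2, where its slope was -0.098, or with array weights, where it was -0.058. Egr2, a zinc finger transcription factor, ran from 4.54 in rat 2 and 4.58 in rat 1 to 6.47 in rat 9 and 6.57 in rat 7, with a slope of -0.43 ± 0.21 (SE). Fos ran from 6.75 in rat 2 to 9.10 in rat 7, with a slope of -0.39 ± 0.20 (SE). Arc, a protein of dendritic endocytosis, ran from 7.97 in rat 1 to 9.98 in rat 7, with a slope of -0.35 ± 0.18 (SE). For each of these 3 genes rats 7 and 9, whose plus maze values were 2.3 and 0, had the 2 highest levels.

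The remaining members had these values. Junb, another AP-1 partner, had a slope of -0.37 ± 0.31 (SE) and the nuclear receptors Nr4a1 and Nr4a3 -0.33 ± 0.19 and -0.26 ± 0.19. The phosphatase gene Dusp6 had -0.36 ± 0.21 and the synaptic scaffold gene Homer1 -0.31 ± 0.17 (SE). Slopes of other tested probe sets of Homer1 ran from -0.489 to 0.069, and those of Dusp6 were 0.022 and -0.057. The Homer1 probe set at -0.489 also had an unadjusted limma p under 0.05, and the count of members at that level takes 1 probe set a gene. Egr1 had -0.18 ± 0.12 and Egr4 -0.058 ± 0.046, and Dusp1 had -0.12 ± 0.11. Slopes of Jun, Nr4a2 and Ptgs2 lay within 1 SE of 0. Fosl2, Egr3 and Ier2 were below the filter, and Npas4, Btg2 and Nptx2 had no probe set of that symbol alone. The mean deviation of the 15 genes from their own means was 0.63 in rat 9 and 0.55 in rat 7, and 0.18 in rat 8. It was lowest in rats 2 and 1, at -0.45 and -0.40, and -0.11 in rat 6, which shared the plus maze value of rat 2. In the fit to ranks 5 of the 15 had a negative slope at an unadjusted limma p under 0.05, against 46 of all 6793 genes. Without rats 8 and 9 the median was -0.13 with 14 negative and none at that level, and without rat 9 alone it was -0.14 with none. Without rats 2 and 6 it was -0.49 with 11 negative and 2 at that level, against 60 of all genes with a negative slope. Without rat 2 alone the list's median was -0.17 with 12 negative and none at that level. Without rat 3 it was -0.27 with 3 at that level, against 52 of all genes with a negative slope.

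Many activity-induced genes are known to be driven through the cyclic AMP response element, which binds CREB, and the CArG box, which binds serum response factor. The promoters of Egr2 and Dusp1 are shown because each holds 1 of these motifs in a group whose slopes were mostly of the same sign. Promoters of RefSeq in the GRCr8 build, 250 bases before to 50 after the start, were found for 11 of the 15 genes. None was found under the symbols Fos, Arc, Nr4a3 and Jun, so those genes were not searched. The Egr2 promoter is on the minus strand at chr20:21054392-21054691, with the CArG box in capitals at -83 from the start, and the Dusp1 promoter is on the plus strand at chr10:17184603-17184902, with the response element TGACGTCA in capitals at -124. Both are written 5' to 3' along the gene.
Egr2: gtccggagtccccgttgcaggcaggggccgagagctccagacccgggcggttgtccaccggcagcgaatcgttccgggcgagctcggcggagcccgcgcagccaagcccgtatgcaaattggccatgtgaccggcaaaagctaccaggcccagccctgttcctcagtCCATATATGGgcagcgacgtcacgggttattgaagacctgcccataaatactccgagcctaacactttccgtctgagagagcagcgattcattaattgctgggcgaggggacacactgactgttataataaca
Dusp1: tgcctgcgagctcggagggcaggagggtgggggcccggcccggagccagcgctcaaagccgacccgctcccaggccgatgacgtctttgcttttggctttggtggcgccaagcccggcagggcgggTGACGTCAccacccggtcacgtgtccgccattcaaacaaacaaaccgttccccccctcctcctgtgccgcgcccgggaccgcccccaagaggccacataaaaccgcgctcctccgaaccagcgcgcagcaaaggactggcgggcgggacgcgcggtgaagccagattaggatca
On both strands TGACGTCA was found in 1 of the 11 promoters, that of Dusp1, and in 1.83% of 33469 rat promoters of the same length. The CArG box was found in 2 of the 11, those of Egr2 and Egr1, and in 1.64% of all. The motifs did not overlap in these promoters. Egr2 had a slope of -0.43 and Dusp1 one of -0.12, so the 2 genes shown differed in size of slope, a difference that was not tested. A match describes the letters in this window and no binding was measured. Shorter or altered forms of TGACGTCA, and sites outside the window, were not searched.

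Markers of the meninges and fibroblasts, the coverings of the brain and their connective tissue cells, mostly had positive slopes. Of 17 listed genes 11 were tested, 10 had a positive slope and 5 had an unadjusted limma p under 0.05, all positive, against 2.8% of all genes. Their median slope was 0.27 against 0.016 over all genes, of which 61.8% had a positive slope. Col3a1, a fibrillar collagen chain, had 2.91 in rat 9, a median of 4.47, 5.57 in rat 2 and 6.47 in rat 6, and its slope was 0.86 ± 0.25 (SE). Rat 8, with a plus maze value of 5.7, had a Col3a1 level of 5.48, close to that of rat 2. Igfbp2, which binds insulin-like growth factors, ran from 5.59 in rat 1 through 6.98 to 8.50 in rat 2, with a slope of 0.70 ± 0.25 (SE). Rbp4, the plasma carrier of retinol, ran from 2.80 in rat 9 through 3.63 to 4.79 in rat 2, with a slope of 0.48 ± 0.12 (SE). Fmod, a collagen-binding proteoglycan, was 4.14 in rat 2 and 4.15 in rat 6 against 2.93 to 3.71 in the others, with a slope of 0.38 ± 0.083 (SE). Col1a2 ran from 2.78 in rat 5 through 3.49 to 4.18 in rat 2, with a slope of 0.27 ± 0.088 (SE) and 0.709 in a second probe set. Signal was low for several of these members. The lowest levels of Col3a1, Rbp4, Fmod and Col1a2 lay below 3.22, the lowest mean kept for testing.

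The other members spread more widely. Ptgds, the prostaglandin D synthase that the leptomeninges make in quantity, ran from 8.80 in rat 5 and 8.83 in rat 9 to 12.18 in rat 2. Its slope was 0.67 ± 0.41 (SE), and rats 4, 8 and 6 lay at 12.11, 11.92 and 11.96, close to rat 2. Col1a1 had 0.24 ± 0.16 and Aldh1a2, which makes retinoic acid, 0.087 ± 0.063 (SE). The slopes of Dcn, Ogn and Mgp lay within 1 SE of 0, and the other tested probe sets of Ogn had 0.672 and 0.019. Lum, Slc6a13, Serping1, Slc22a6, Slc13a4 and Crabp2 were below the filter, so the count of 11 covers only members with enough signal, and no weight rests on it. The log2 of the summed level of the 11 genes ran from 9.42 in rat 5 to 12.4 in rat 2. Rat 4, with a plus maze value of 3, had 12.2, above rat 6 at 12.1, and rat 8 had 12.1. Ptgds, which alone ran from 8.80 to 12.18, weighs heavily in this sum. In bulk tissue fewer cells of a type and less RNA per cell cannot be told apart, and how much of the coverings each dissection held was not measured. Without rats 2 and 6 the median was 0.14 with 9 positive and none at an unadjusted limma p under 0.05. Without rats 8 and 9 it was 0.29 with 6, and with the 3 other behaviours as covariates 0.33 with 6. Of all 6793 genes 191 and 121 had a positive slope at that level in these 2 fits. Leaving out rat 2 or rat 6 alone left 3 members at that level, against 109 and 155 of all genes with a positive slope.

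**Figure D3:**
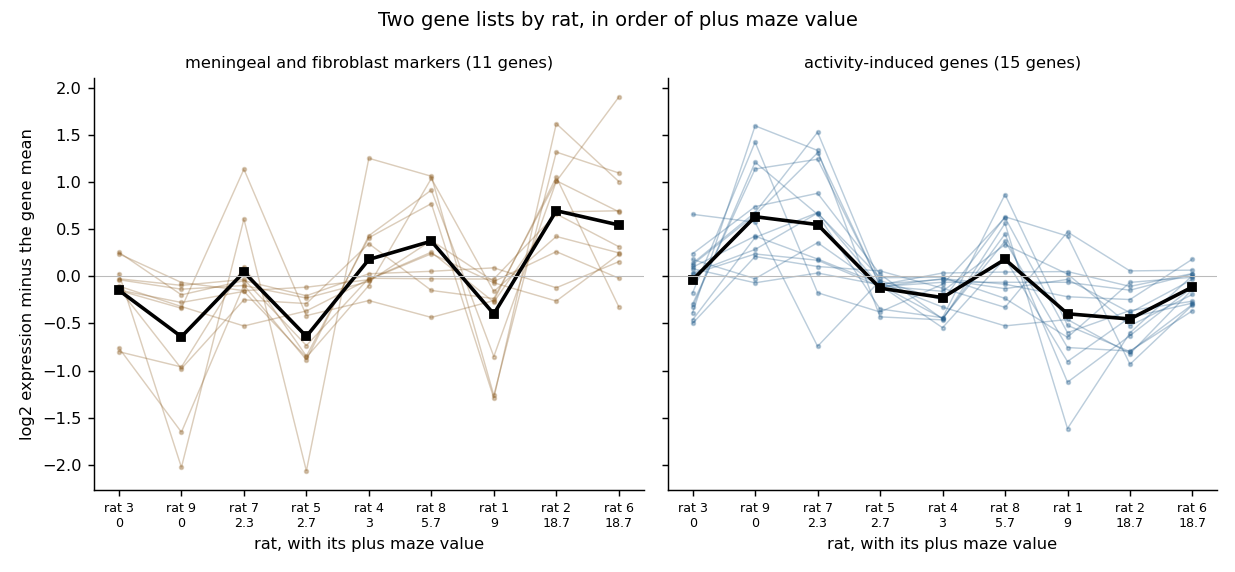
Log2 expression minus the gene's own mean (vertical axis) for the tested meningeal and fibroblast markers (11 genes, left) and activity-induced genes (15 genes, right), with rats in order of plus maze value (horizontal axis); thin lines are genes and black squares their mean in each rat. The left mean is highest in rats 2 and 6, at 0.69 and 0.54, and the right mean in rats 9 and 7, at 0.63 and 0.55.

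Rats 2 and 6 had the highest mean deviation of the meningeal list, 0.69 and 0.54. Rats 5 and 9 had the lowest, -0.64 in both, and rat 1, with a plus maze value of 9, had -0.40. The part of these markers in the slopes of other genes was not tested. Smooth muscle markers had a median slope of 0.068 and endothelial and pericyte markers one of 0.017, with 0 of 4 and 0 of 9 genes at an unadjusted limma p under 0.05. With each rat left out in turn the smooth muscle median ran from 0.039 to 0.12, with 0 or 1 gene at that level. The endothelial and pericyte median was -0.019 without rat 6, and without rat 3 it was 0.087 with all 9 slopes positive and 2 at that level. In the fit without rat 3, 66.2% of all gene slopes were positive, and 268 of 6793 were positive at that level. The smooth muscle and endothelial medians were 0.00016 and -0.17 without rats 2 and 6. Of the red blood cell list, Hbb ran from 10.12 to 12.30, and 0 of 3 genes were at that level. The choroid plexus genes tested, Kcne2 and Folr1, had slopes within 1 SE of 0.

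Astrocyte markers had 2 members with an unadjusted limma p under 0.05 among 10 tested, both positive, against 2.8% of all genes, and a median slope of 0.051. Aqp4, the water channel of astrocyte end feet, ran from 9.79 in rat 9 through 10.37 to 10.69 in rat 6, with a slope of 0.20 ± 0.071 (SE), and its other tested probe sets had -0.23 and -0.054. Slc4a4, a bicarbonate cotransporter, ran from 7.42 in rat 9 through 7.56 to 7.75 in rat 2, with a slope of 0.090 ± 0.032 (SE), and its other tested probe set had -0.38. Without rat 6 the median slope of the list was -0.0022, with none at that level. Without rat 2 it was 0.062 with 1, against 109 of all 6793 genes with a positive slope. Microglial markers had a median of 0.071 and 0 of 8 at that level, with P2ry12, a purinergic receptor of microglia, at 0.28 ± 0.14 (SE). Without rat 3 the microglial median was 0.14, with all 8 slopes positive and 4 at that level. Of all 6793 genes 66.2% then had a positive slope, 268 of them at that level. Without rats 2 and 6 the microglial median was -0.080 with 7 of 8 slopes negative, where 54.4% of all slopes were positive. Neuron markers had 0 of 12, with 5 positive and 7 negative slopes and a median of -0.013. Without rats 2 and 6 the neuron median was 0.049, with 9 slopes positive. The neuron markers of smallest p were Rbfox3 at -0.12 ± 0.055 (SE) and the neurofilament gene Nefh at -0.14 ± 0.076 (SE). Oligodendrocyte markers had 0 of 9, with 5 positive and 4 negative slopes and a median of 0.0017. Their members of smallest p were Mobp at -0.14 ± 0.095 and Mbp at -0.11 ± 0.070 (SE). The list's median ran from -0.088 without rat 2 to 0.079 without rat 6. Without rat 2 it had 2 negative slopes at that level, against 47 of all genes. Striatal markers had 0 of 3, with the phosphodiesterase gene Pde10a at -0.49 ± 0.26 and Ppp1r1b at -0.12 ± 0.075 (SE), and olfactory bulb markers had 0 of 3, with Reln at 0.12 ± 0.088 and Cdhr1 at -0.069 ± 0.051 (SE).

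A panel of 25 genes known from research on anxiety was examined whatever it showed. Of these 16 were tested, Crh, Htr1a, Oxtr and Tac1 were below the filter, and Gabra2, Crhr1 and Npy1r had no probe set of that symbol alone. All 16 had a limma adjusted p of 0.999. Nr3c1, the glucocorticoid receptor, was 7.46 in rat 2 and 7.26 in rat 6, between 6.95 and 7.04 in 6 rats, and 6.19 in rat 9. Its slope was 0.23 ± 0.087 (SE), 0.15 without rat 9 and 0.21 without rat 2, where its unadjusted p was no longer under 0.05, and a second probe set had -0.013. Nr3c2, the mineralocorticoid receptor, was 3.81 in rat 3 and 5.07 in rat 9 and lay between 5.78 and 6.16 in the other 7. The slope of Nr3c2 was 0.40 ± 0.20 (SE), with a rho of 0.891 (exact permutation p = 0.00254) and an r of 0.552 (exact permutation p = 0.0936). Without rats 2 and 6 its r was 0.647, and without rat 3 its slope was 0.20. Htr2a, a serotonin receptor of cortical pyramidal cells, ran from 5.09 in rat 4 through 5.39 to 6.04 in rat 1, with 5.88 in rat 2 and 5.58 in rat 6. Its slope was 0.20 ± 0.088 (SE), 0.17 without rat 2, where its unadjusted p was no longer under 0.05, and 0.10 with the 3 other behaviours as covariates. Thus rat 2 had 1 of the 2 highest levels of all 3 receptors, but the lowest rat differed, being rat 9 for Nr3c1, rat 3 for Nr3c2 and rat 4 for Htr2a.

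The other panel genes had slopes nearer 0 or wider errors. Glo1, the glyoxalase that clears methylglyoxal, ran from 9.74 in rat 3 to 10.13 in rat 2, with a slope of 0.077 ± 0.038 (SE). Cnr1, the cannabinoid receptor of cortical interneurons, had 0.10 ± 0.059, but a second probe set had -0.277. Tspo, a protein of the outer mitochondrial membrane, had -0.087 ± 0.050 at levels of 2.97 to 3.52, near the lowest mean kept, and 0.090 without rats 2 and 6. The peptide gene Adcyap1 had 0.053 ± 0.044. Slopes of Gad1, Crhbp, Htr2c, Fkbp5, Bdnf, Ntrk2, Npy, Cck and Cckbr lay within 1 SE of 0. For Bdnf that was -0.15 ± 0.20 (SE), with levels from 4.27 to 6.49, and for Fkbp5, a co-chaperone of the glucocorticoid receptor, -0.0016 ± 0.034.

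The neurotransmitter and stress lists held few or no members at an unadjusted limma p under 0.05, to be read against 2.8% of all genes with a positive and 0.515% with a negative slope. GABA-A receptor subunits had 0 of 6 with a median slope of 0.025, which ran from -0.018 without rat 2 to 0.053 without rat 9, and GABA synthesis and interneuron genes 0 of 10 with 0.042. Gabrb1 had 0.20 ± 0.18 and the peptide gene Sst 0.091 ± 0.068 (SE). Glutamate receptors and transporters had 0 of 15 with a median of -0.0070. Gria1 and Grm3 had slopes of -0.41 ± 0.32 and -0.32 ± 0.20 (SE). The serotonin list had 1 of 7, Htr2a. The corticosteroid list had 1 of 13, Nr3c1, and 11 of its 13 slopes were negative, with a median of -0.017. Of all gene slopes 61.8% were positive. Without rat 2, 7 of the 13 were negative and none was at that level, and without rats 2 and 6, 9 were positive with a median of 0.038. In these 2 fits 65.2% and 54.4% of all gene slopes were positive. The clock gene Per1, which glucocorticoids induce, had -0.25 ± 0.21 (SE). Genes of the CRH system and other peptides had 0 of 12, opioid and cannabinoid genes 0 of 5, neurotrophin and CREB genes 0 of 7, dopamine and noradrenaline genes 0 of 2 and neurosteroid genes 0 of 3. Adcyap1r1, the receptor for the peptide made from Adcyap1, had 0.13 ± 0.092 (SE).

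Housekeeping and synaptic lists were also counted, and their signs are to be read against 61.8% of all genes with a positive slope. Splicing factor genes had 1 positive member, Sf3b5, and 2 negative ones, Srsf2 and Snrnp70, among 23, with a median slope of 0.0052. Snrnp70, a protein of the U1 particle, ran from 8.30 in rat 2 through 8.72 to 8.95 in rat 4, with a slope of -0.15 ± 0.060 (SE). Actin regulators had Myl12a positive and Limk1 negative among 17, and 15 slopes were positive with a median of 0.029. Synaptic vesicle genes had 1 of 21, with a median of -0.044. It was Synj1, the phosphatase that uncoats vesicles, which ran from 9.41 in rat 7 to 10.41 in rat 2, with a slope of 0.22 ± 0.088 (SE), opposite in sign to its relative Synj2. The vesicle SNARE gene Vamp2 had -0.18 ± 0.081 (SE). Respiratory chain genes had 0 of 46, with 40 positive slopes and a median of 0.036. After a further quantile normalization 33 were positive, where 56.3% of all genes were. Ribosomal protein genes had 0 of 30 with a median of 0.030. Without rat 3 it was 0.050 with 3 at that level, against 268 of all 6793 genes with a positive slope. Without rats 2 and 6 it was -0.065 with 22 slopes negative, where 54.4% of all gene slopes were positive. Glyoxalase and glutathione genes had 0 of 14, with 13 positive and a median of 0.065. Across the 30 lists, 20 had no member at that level in the fit to 9 rats, and the 3 lists with 3 or more were the meningeal, interferon and splicing lists. Leaving out 1 rat turned the sign of the median in 15 of the 30 lists and altered the number of members at that level in 21. The sign turned in 13 lists without rats 2 and 6, and 3 lists then had a member at that level.

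**Figure D4:**
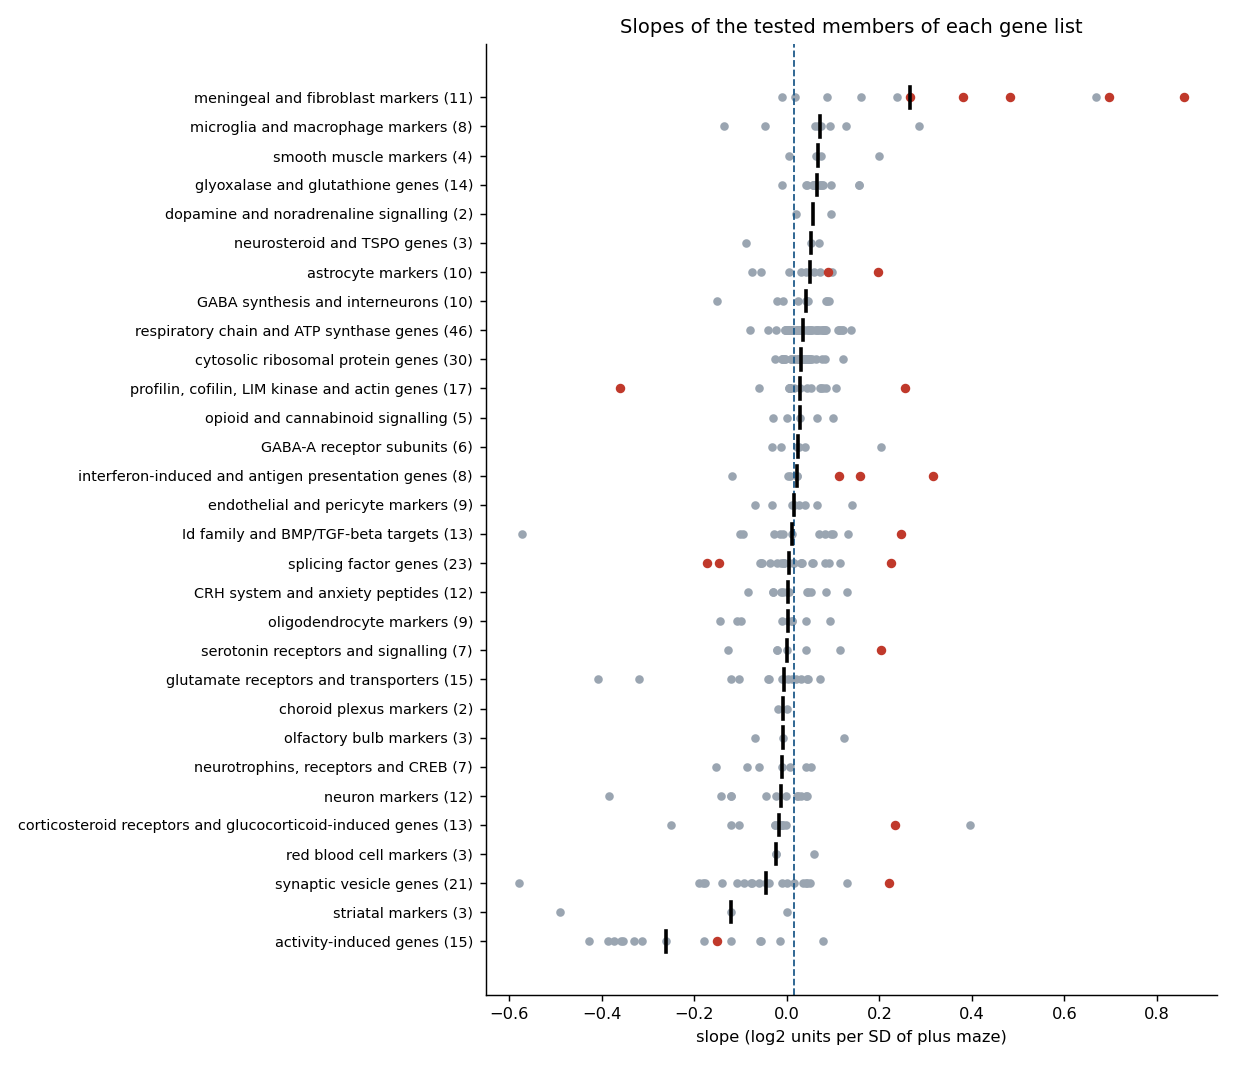
Slopes in log2 units per SD of the plus maze value (horizontal axis) of the tested members of 30 gene lists (vertical axis, number tested in parentheses); red points have an unadjusted limma p under 0.05, black bars are list medians and the dashed line is the median of all genes, 0.016. The meningeal and fibroblast list has its median at 0.27 and the activity-induced list at -0.26.

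The plus maze value was related to locomotion among some of the rats. Over 9 rats locomotion gave an r of 0.127 (exact permutation p = 0.754, and 0.754 adjusted over 3 behaviours) and a rho of 0.269 (exact permutation p = 0.480, and 0.799 adjusted). Rats 2 and 6, with the highest plus maze value, had locomotion values of 787 and 634, inside the range of the others. Among the other 7 rats r was 0.870 (exact permutation p = 0.00873) and rho 0.847. In those 7, rat 1 had the highest value of both, 9 and 1102, and rat 3 the lowest of both, 0 and 536. A slope without rats 2 and 6 is therefore also largely a slope on locomotion, and the plus maze and locomotion cannot be told apart there. Startle gave an r of 0.197 over 9 rats (exact permutation p = 0.617) and 0.0444 without rats 2 and 6, and its rho was 0.168 (exact permutation p = 0.666). Sugar feeding gave -0.317 (exact permutation p = 0.423) and 0.265 without rats 2 and 6, and its rho was -0.101 (exact permutation p = 0.799). After adjustment over the 3 behaviours both had 0.754 for r and 0.799 for rho in these permutation tests.

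**Figure D5:**
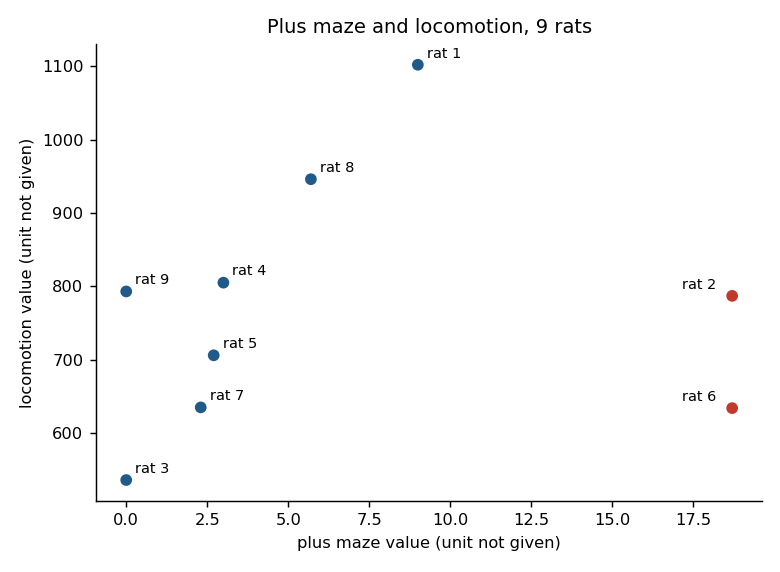
Locomotion value (vertical axis) against plus maze value (horizontal axis), both without a unit in the labels; each point is 1 rat, and rats 2 and 6 are in red. The 7 blue points go up together from rat 3 at 0 and 536 to rat 1 at 9 and 1102, while the red points lie at 18.7 with 787 and 634.

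The genes that led without rats 2 and 6 were mostly different ones. The 6 with a positive slope were Acer3, a ceramidase, Map4k1, Shroom2, an actin-binding protein, Ppih, Bnip2 and Rbpms2, and the 6 with a negative slope were Lypla2, Neurl4, Rbck1, Entr1, Srebf2 and Il33. In 11 of these 12 genes rat 1 was the extreme rat of all 9, highest in 5 and lowest in 6. Rat 1 had the highest plus maze value in the fit that picked these genes, which favours this. The share of all genes with rat 1 extreme was not counted. Over all 9 rats 10 of the 12 slopes lay within 1 SE of 0, and the exceptions were Acer3 and Shroom2. Shroom2 ran from 8.63 in rat 9 and 8.72 in rat 3 to 9.01 in rat 2 and 9.13 in rat 1, with a slope of 0.094 ± 0.046 (SE). Acer3 ran from 4.23 in rat 3 to 5.60 in rat 1, with 5.06 in rat 2 and 5.10 in rat 6, and had a slope of 0.18 ± 0.11 (SE). Srebf2, a transcription factor of sterol synthesis, was 8.51 in rat 1 and between 8.86 and 8.99 in the other 8. For Shroom2 and Acer3 the levels of rats 2 and 6 fell below that of rat 1, whose plus maze value was 9.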

How the data were processed

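Total RNA of prefrontal cortex from 9 rats was hybridised to 1 array each. The authors deposited log2 values for each probe set. The submitters' processing notes name GCRMA and R 2.6.2, and further steps were not given in the sources used here. GCRMA corrects background by probe sequence, which can give weak probe sets the same value on several arrays, and 47.0% of tested sets repeated a value on at least 2 arrays. Precision was limited by the number of arrays. Of 15923 probe sets, 57 controls and then the lowest 40% by mean were left out, which kept 9520. The platform annotation gave 7862 of these 1 gene symbol, for 6793 genes; RefSeq promoters were of the GRCr8 build.

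limma 3.58.1 in R 4.3.3 (lmFit, eBayes) fitted a slope per SD of the plus maze value with 7 residual degrees of freedom, two-sided, with Benjamini-Hochberg adjustment over all probe sets. The fit was also run on these arrays with the order of rats shuffled and known slopes added to some probe sets. The outcome of that run is not given here. Exact two-sided permutation tests of correlations used all 362880 pairings of 9 rats, or 5040 of 7, with Python 3.11.15, numpy 2.4.6, pandas 2.3.3 and scipy 1.17.1; figures used matplotlib 3.10.9.

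Named genes were the 15 per direction of smallest p, 6 per direction in the fits to ranks and without rats 2 and 6, a panel of 25 genes and members of 30 lists by smallest p, with 1 probe set per gene, the one of highest mean. At most 3 members of each of 19 pathway lists and 2 of each of 11 marker lists were named, except that all were named for 2 lists, a choice made after values were seen. The members and lists were chosen with earlier results of these data known. Some panel genes are not reported here. Genes whose slope lay within 1 SE of 0 were given no direction. Alternatives changed the filter, normalization, scale of the plus maze, covariates, weights and rats used.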

Additional observations from a re-analysis of the deposited data

Results flagged for a closer look

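Among the 145 measures examined over the 9 rats, 17 (11.7%) had a highest or lowest rat whose gap to the nearest other rat exceeded 0.493 of the whole range. Chance flags about 1 in 20 such groups, and many of the genes were named for how they moved, so the number is given as a description. The gap as a share of the range is given in parentheses. Rat 1 was far below the others for Lypla2 (0.588), Neurl4 (0.568), Entr1 (0.674), Srebf2 (0.719) and Il33 (0.591). Rat 3 was far below the others for Nr3c2 (0.536), Cnr1 (0.512) and Sst (0.504). Rat 5 was far below the others for Acta2 (0.528). Rat 6 was far below the others for Spata2 (0.618) and Tspo (0.58). Rat 7 was far below the others for Ntrk2 (0.608) and Adra1b (0.545). Rat 8 was far below the others for Crhbp (0.738). Rat 9 was far below the others for Nr3c1 (0.604) and Kdr (0.527). Rat 3 was far above the others for Slc4a1 (0.53).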

How the results depend on the processing

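No probe set passed a limma adjusted p of 0.05 under any of the 14 alternatives or without any 1 rat, and the lowest adjusted p was 0.0902, with array weights. The count at an unadjusted p under 0.01, 44 over 9 rats, was 77 with no filter and 11 with the filter at 70%, where more or fewer probe sets were tested. It was 29 with the 3 other behaviours as covariates, 13 without rats 2 and 6 (1 of them among the 44) and 404 with array weights, which gave rat 6 a weight of 5.79; the cause was not tested. Leaving out each rat in turn gave counts from 31 without rat 9 to 80 without rat 3. Under the other alternatives it lay between 35 and 55.

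Slopes of 16 named genes and 1 correlation took the opposite sign in 19 cases. Without rats 2 and 6 the slope was -0.039 for Ifitm3, 0.11 for Gne, 0.0055 for Arpc5l, 0.090 for Tspo, -0.027 for Abat, 0.096 for Homer1, 0.070 for Egr1, -0.11 for Gsta4, -0.062 for Rpl27, 0.040 for Rbfox3, 0.034 for Nefh, -0.029 for P2ry12, -0.046 for Mylk, 0.019 for Ppp1r1b and 0.083 for Cdhr1, and r with sugar feeding was 0.265. With array weights the slope of Sst was -0.00405. Leaving out each rat in turn gave slopes from -0.013 to 0.087 for Abat and from -0.12 to 0.0096 for Cdhr1, with the sign turned without rat 6. The cause was not tested. Of 141 named genes 38 had a slope within 1 SE of 0, and 118 sign changes among their values are not counted here. The alternatives for gene lists were chosen after seeing the data. No paired analysis was possible because the rats form 1 group.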
